A study of Mus musculus with 2 samples.

Results

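H3K4me3 peaks were examined at 9 genes of enteric glia and the neural crest, namely Sox8, Sox9, Sox10, Foxd3, S100b, Erbb3, Gpr37l1, Entpd2 and Fabp7. The 9 were a list of named genes, taken from 21887 protein-coding mouse genes on the 21 chromosomes of the peak list. A gene's peaks were those with at least 1 bp inside its RefSeq model or within 1 kb to either side. Peaks were read singly, and also after joining those less than 1 kb apart into regions.

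The peaks came from chromatin immunoprecipitation and sequencing (ChIP-seq) of trimethylated lysine 4 of histone H3, a mark that lies mainly at promoters that are active or held ready. The cells were neurons of the mouse small intestine, sorted for NOS1, the neuronal nitric oxide synthase. There was 1 H3K4me3 library and 1 input chromatin library, with no replicate, so nothing below carries a test or a replicate error. The sources used here name no strain, age or number of animals, and do not say how NOS1+ cells were marked for sorting.

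Enteric glia and enteric neurons both descend from neural crest cells that migrate into the gut. SOX10 and FOXD3 keep crest progenitors multipotent. SOX10 stays on in glia and is turned off in most maturing neurons, while ERBB3 receives neuregulin signals that Schwann and glial precursors need. S100B, FABP7, ENTPD2 and GPR37L1 are products of glia. In chromatin pooled from many cells, fewer cells with the mark and less mark per cell cannot be told apart.

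The list held 29924 peaks with scores from 2.0015 to 703. The score is the authors' own value for each peak, on a scale that no source used here states, and serves only to rank peaks within this list. Depth is unknown. Of 10 neuron markers, all carried a peak, with a median highest score of 48.1. Nos1, the gene of the sort, held 1 peak (183 bp, score 13.01), and none within 1 kb of a start.

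All 9 genes carried H3K4me3, and mostly over wide stretches with middling or low scores. Each had a peak over its model, against 67.0% of all protein-coding genes. Each also had one within 1 kb of a start, or of a model end where the tables gave no start, against 62.9%. Starts and strands were at hand for 6 of the 9 (Sox8, Foxd3, S100b, Gpr37l1, Entpd2 and Fabp7), and all 6 had a peak within 1 kb of the start, against 63.0% of genes with a start in the table. For Sox9, Sox10 and Erbb3 the ends are named by coordinate, as the lower or the upper end of the model. The share of 67.0% also stands beside the full-list counts of genes with a peak in the related lists below.

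Promoter sequences are shown for 4 of the genes, because the peaks met their starts in 4 different ways. They are the 250 bases before the start, 5′ to 3′ on the gene's own strand, from RefSeq on GRCm38.p6, which numbers chromosome bases as mm10 does. In Foxd3 (chr4:99656049-99656298, plus strand) the capitals mark the 62 bases that no peak covers. In Gpr37l1 (chr1:135167682-135167931, minus strand), S100b (chr10:76253586-76253835, plus strand) and Sox8 (chr17:25570687-25570936, minus strand) they mark CCAAT boxes (CCAAT, or ATTGG on the other strand) and GC boxes (GGGCGG).
Foxd3: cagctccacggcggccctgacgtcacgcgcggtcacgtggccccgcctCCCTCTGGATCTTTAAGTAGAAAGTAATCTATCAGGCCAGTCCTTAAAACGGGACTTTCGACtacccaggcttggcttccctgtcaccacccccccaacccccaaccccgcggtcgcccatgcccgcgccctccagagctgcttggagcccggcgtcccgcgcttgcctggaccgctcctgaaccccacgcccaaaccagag
Gpr37l1: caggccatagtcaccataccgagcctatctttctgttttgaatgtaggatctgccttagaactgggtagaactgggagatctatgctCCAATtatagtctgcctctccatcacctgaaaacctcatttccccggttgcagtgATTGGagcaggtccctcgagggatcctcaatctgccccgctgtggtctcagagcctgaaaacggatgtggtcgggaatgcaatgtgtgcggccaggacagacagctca
S100b: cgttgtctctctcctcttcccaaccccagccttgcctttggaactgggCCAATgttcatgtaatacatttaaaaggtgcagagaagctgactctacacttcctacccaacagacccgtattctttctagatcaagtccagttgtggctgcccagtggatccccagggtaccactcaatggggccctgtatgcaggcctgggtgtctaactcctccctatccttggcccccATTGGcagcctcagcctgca
Sox8: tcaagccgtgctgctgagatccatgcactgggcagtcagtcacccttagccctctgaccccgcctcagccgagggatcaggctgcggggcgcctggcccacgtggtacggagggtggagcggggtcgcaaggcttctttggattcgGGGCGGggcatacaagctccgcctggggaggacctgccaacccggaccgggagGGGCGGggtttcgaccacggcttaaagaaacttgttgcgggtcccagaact

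All 250 bases of the Sox8 stretch lay inside a peak, and 188 of the 250 in Foxd3. In S100b only the last 61 bases did, and in Gpr37l1 none. Entpd2 and Fabp7, not printed, resembled Sox8, with all 250 bases inside a peak.

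The members' promoters ranged from CpG-rich to CpG-poor. The ratio of observed to expected CpG was 0.85 in Foxd3 (21 CpG in 250 bases), 0.68 in Sox8, 0.41 in both Entpd2 and Gpr37l1, 0.21 in Fabp7 and 0.12 in S100b (2 CpG). The median was 0.73 over 13307 promoters of protein-coding genes with a peak within 1 kb, and 0.18 over the 7956 without one. Foxd3 alone of the 6 lay above the first median. S100b lay below the second and Fabp7 just above it, although both genes were marked.

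GC boxes were found in Sox8 and Entpd2, 2 in each, against 42.6% of 21263 promoters with at least one. CCAAT boxes were found in Gpr37l1, Fabp7 and S100b, again 2 in each, against 35.4%. The S100b pair lay 202 and 20 bases before the start. All 6 held an E-box (CANNTG), against 62.8%, and in Sox8 and Foxd3 it read CACGTG. None of the 6 held a TATA box (TATAAA, 11.6% of promoters) or either of the Sox core sequences ACAAAG and ACAATG (22.8%). Both strands were searched, and these counts describe letters in this window only.

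**Figure D1:**
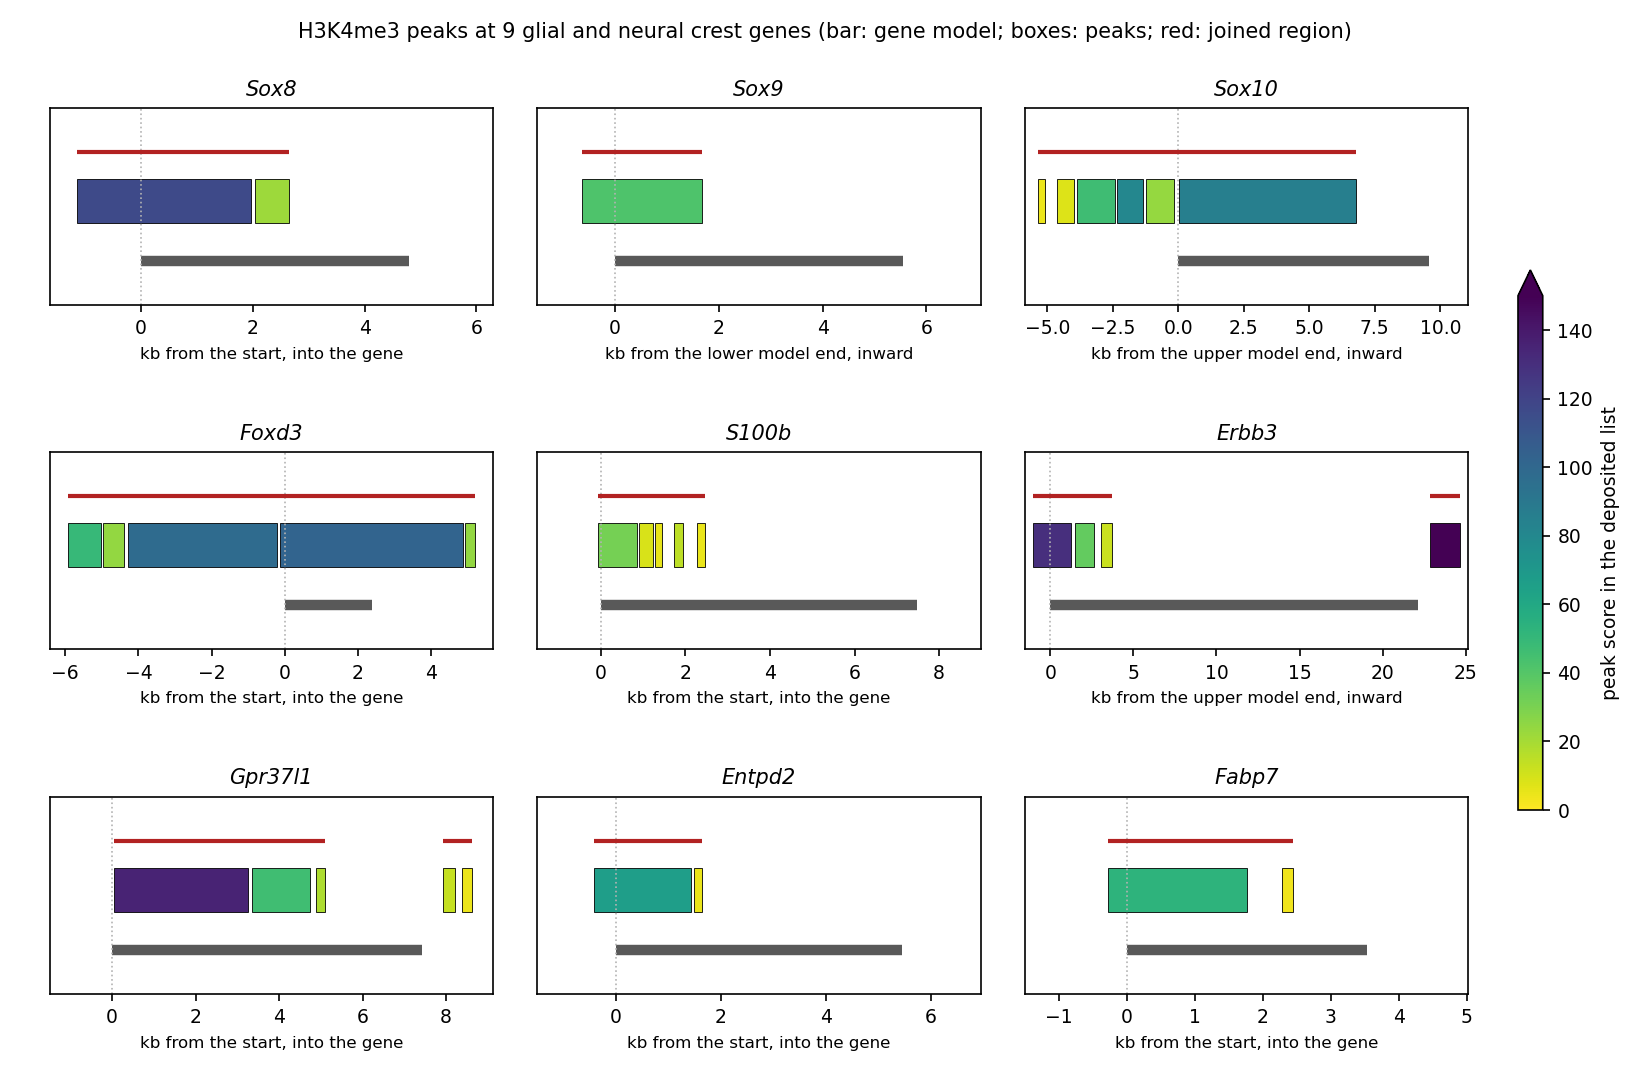
Peaks (boxes, coloured by score) over the model of each gene (grey bar), with regions joined within 1 kb in red. The horizontal axes give kb from the start, or from a model end where no start was at hand, and each panel has its own scale. Foxd3 and Sox10 are covered on both sides of the start or end, while the widest joined regions of S100b and Gpr37l1 lie almost only inside the gene.

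The crest regulators Sox10 and Foxd3 had the widest H3K4me3 of the 9. Sox10 (chromosome 15, 79154913 to 79164490) encodes the SoxE transcription factor shared by crest progenitors and glia. Its widest peak spanned 6775 bp with a score of 85.9, which ranked 13 by width and 10742 by score among the 14665 genes with a peak. That peak began 7 bp inside the upper end of the model and reached 6781 bp inward, and peaks covered 70.7% of the model. After a gap of 189 bp, a second peak of 1062 bp (score 23.6) lay beyond the upper end.

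Joined with its neighbours, the Sox10 region held 6 peaks over 12133 bp, 5351 bp of it beyond the upper end, and ranked 14. The start of Gm10863, a long noncoding RNA on the plus strand, lies 1576 bp beyond that end. The peak over it, of 1018 bp, had a score of 80.5, close to the 85.9 of the Sox10 peak. The joined width therefore also takes in the start of Gm10863. Among the 50% of peaks with the higher scores, joining no longer reached the neighbours, and 6775 bp was left.

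Foxd3 (chromosome 4, 99656299 to 99658671) encodes a forkhead factor of early crest. A peak of 5004 bp (score 102.2) began 140 bp before the start and covered the whole short model, and a peak of 4080 bp (score 97.9) ended 203 bp before it. The 62 bases between them are those in capitals above. With 3 weaker peaks further out, the region measured 11118 bp, of which 10825 bp were covered, and it ranked 18. It reached 5930 bp before the start and 5187 bp after it, and no end of another annotated gene lay inside. Foxd3 and Sox10 were thus similar in joined width, and in Foxd3 the peaks before and after the start had similar scores.

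The related FoxD genes were far less covered. Foxd2 had 1 peak of 2900 bp, scored 97.9. Foxd1 and Foxd4 had joined regions of 1446 and 498 bp, with highest scores of 11.4 and 6.81.

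The other SoxE genes, Sox8 and Sox9, were marked more narrowly than Sox10. Sox8 (chromosome 17, 25565893 to 25570686), which overlaps in function with Sox10 in crest cells, had a peak of 3107 bp (score 116.0) from 1131 bp before the start to 1975 bp after it. A smaller one of 603 bp (score 22.1) followed after 65 bp. The first peak is shared: Cerox1, a long noncoding RNA on the opposite strand, has starts 125 and 143 bp before that of Sox8, so the printed sequence lies across both promoters. The peak cannot be assigned to either gene.

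Sox9 (chromosome 11, 112782210 to 112787757), a factor of early crest, cartilage and several epithelial and glial progenitors, had 1 peak only. It covered the lower end, from 629 bp outside to 1673 bp inside, 2303 bp wide and scored 41.7. By width it ranked 2448, but by score 12382. It was the only 1 of the 9 whose joined region held a single peak. Regions of 2 or more peaks were found at the other 8, against 44.3% of genes with a peak, a comparison chosen after the values were seen. At Entpd2 and Fabp7 the second peak was under 300 bp, with scores of 5.21 and 3.41. Each of these 2 genes had 1 peak when peaks under 300 bp were left out. The 44.3% counts such narrow peaks as well.

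Among the SoxD and SoxF genes, 4 of 6 had a peak, with a median joined width of 2968 bp. Sox6 (5246 bp), Sox5 (3053 bp) and Sox13 (2883 bp), the SoxD genes that modulate SoxE activity, were the widest. Sox17 and Sox18, factors of endothelium, had none.

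Erbb3 (chromosome 10, 128567523 to 128589635) was marked at its upper end. A peak of 2289 bp (score 129.8) covered that end, reaching 1013 bp outside and 1275 bp inside. Weaker peaks of 1094 bp (score 35.7) and 644 bp (score 12.1) followed inward, and the 3 joined to 4729 bp. A further peak of 1847 bp, scored 194.7, lay within 1 kb of the lower end, but it covers the start of the neighbouring gene Pa2g4, which encodes an ERBB3-binding protein. The score of 194.7 is therefore not attributed to Erbb3.

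Of the other ErbB receptors and neuregulins, 6 of 7 had a peak, with a median joined width of 2099.5 bp. Erbb4 had 3388 bp, the ligand gene Nrg3 2246 bp and Erbb2, the partner that ERBB3 needs for signalling, 2108 bp with a score of 202.3. The ligand gene Nrg4 had none. Erbb3 thus had the widest joined region of the ErbB receptor genes in this library.

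Of the 4 genes for these glial products, S100b, Fabp7, Entpd2 and Gpr37l1, the last had the widest single peak and joined region. S100b had the narrowest single peak and Entpd2 the narrowest joined region. Gpr37l1 (chromosome 1, 135160250 to 135167681) encodes an orphan receptor of glia. Its main peak of 3214 bp had a score of 135.4, the highest of the 9 when the Pa2g4 peak is left aside. The peak began 54 bp after the start and ran 3267 bp into the gene, so that Gpr37l1 alone of the 6 genes with a known start had no peak over the start itself. With peaks of 1388 bp (score 45.8) and 223 bp (score 18.6) it joined to 5055 bp. Peaks of 295 and 249 bp lay outside the model, beyond its far end. Gpr37, its close relative, had a joined region of 4086 bp.

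Fabp7 (chromosome 10, 57784923 to 57788450) encodes the brain-type fatty acid binding protein of radial and peripheral glia. A peak of 2049 bp (score 52.8) reached from 281 bp before the start to 1767 bp after it, and a peak of 171 bp (score 3.41) lay 510 bp further in. Of the 9 other genes of the family, 2 had a peak: Fabp5 with 2085 bp (score 120.1) and Fabp3 with 1755 bp joined (score 51.4). Fabp1 and Fabp2, of intestinal epithelium, and Fabp4, of fat cells and endothelium, were among the 7 without one, as was Pmp2, a protein of peripheral myelin.

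Entpd2 (chromosome 2, 25395874 to 25401323) encodes the ectonucleotidase that splits extracellular ATP at the surface of enteric glia. Its peak of 1835 bp (score 66.5) reached from 410 bp before the start to 1424 bp after it, and one of 162 bp (score 5.21) followed. The joined width of 2051 bp was the smallest of the 9. Of 12 other extracellular nucleotide hydrolases and their relatives, 9 had a peak, with a median joined width of 1733 bp, led by Enpp2 (2610 bp), Nt5e (2384 bp) and Enpp1 (2051 bp). Entpd4, Entpd8 and Alpl had none.

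S100b (chromosome 10, 76253836 to 76261319) encodes a calcium-binding protein that is the common immunostaining marker of enteric glia. Its mark was broken into 5 narrow peaks of 912, 313, 155, 219 and 177 bp, with scores of 31.3, 9.13, 5.74, 15.1 and 5.01 in order from the start. The first began 61 bp before the start, and the last ended 2458 bp after it. S100b was the only member whose widest single peak fell short of the median of all genes with a peak, at rank 12011. Joined, the 5 spanned 2520 bp, of which 1776 bp were covered. Without peaks under 300 bp the span was 1290 bp, and no S100b peak was among the 50% with the higher scores. Of 14 other S100 genes, 8 had a peak. The widest joined regions, of 3229 and 3096 bp, were each shared by a pair of adjoining genes, S100a5 with S100a6 and S100a1 with S100a13. S100a3, S100a8 and S100a9 were among the 6 without a peak.

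**Figure D2:**
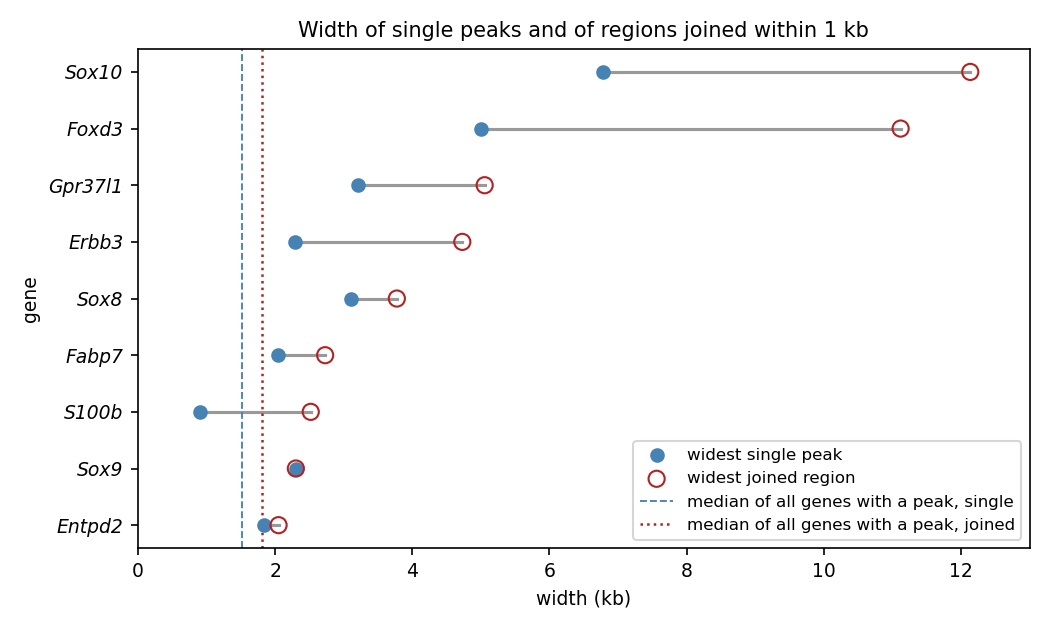
Width in kb of the widest single peak (filled) and of the widest region joined within 1 kb (open) for each gene, with the medians of all genes with a peak as vertical lines. Joining adds most at Sox10 and Foxd3 and nothing at Sox9, and it takes S100b from below the median to above it, though not when peaks under 300 bp are left out.

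Across the 9 genes, width and score stood apart. The widest single peak had a median of 2303 bp, against 1515 bp for all genes with a peak, and 8 of 9 were at or above the latter. Joined regions had a median of 3775 bp, against 1816 bp, and all 9 were at or above it. With peaks under 300 bp left out, S100b (1290 bp) fell short of the median of 1750 bp and the other 8 did not. The highest score had a median of 85.9, against 152.6, and only Erbb3 was above that, through the peak over the Pa2g4 start. When peaks that hold an end of another protein-coding gene were left out throughout, none of the 9 reached the median score of 137.3, and 8 of 9 still reached the median width of 1367 bp.

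The same held within ranges of width. In the widest 25% of genes with a peak, from 2037 to 8862 bp, the median highest score was 173.7. Of the 7 members there, 6 lay below it, from Sox9 at 41.7 to Gpr37l1 at 135.4. Entpd2 (66.5), in the next range, lay below its median of 168.7, and S100b (31.3), in the narrowest range, below 40.3. In the higher-scored 50% of the list 8 of the 9 kept a peak, against 57.8% of all protein-coding genes.

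**Figure D3:**
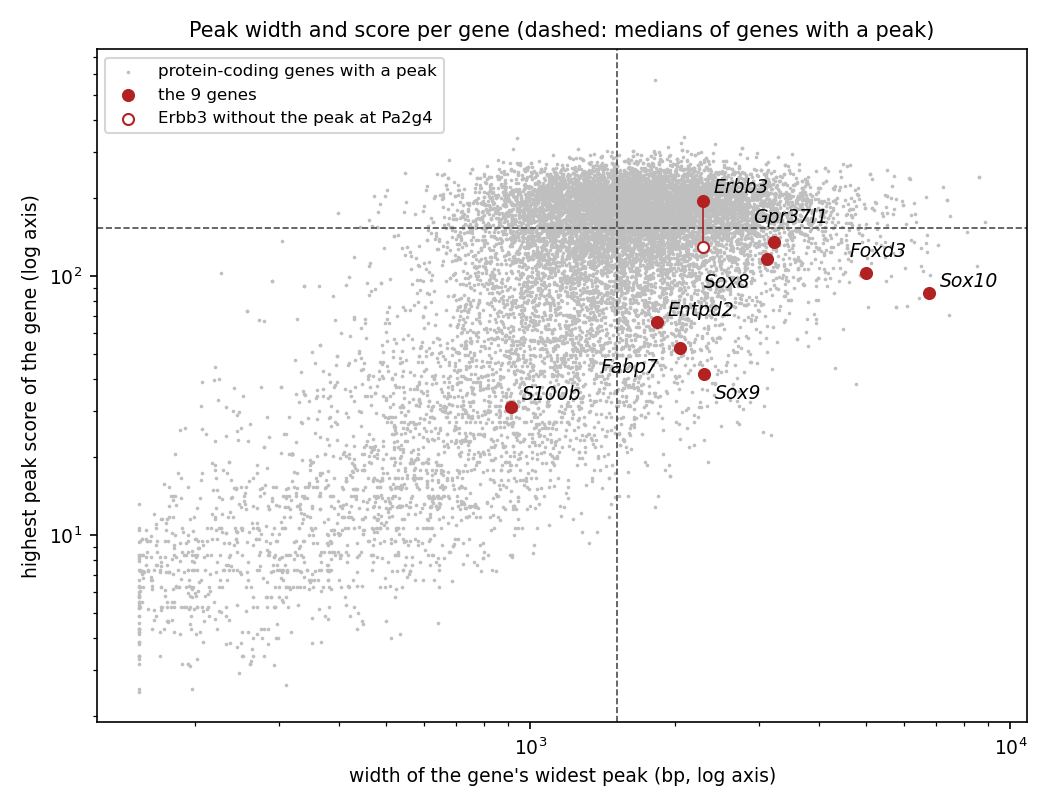
Width of the widest peak (bp, horizontal, log axis) and highest score (vertical, log axis) of each protein-coding gene with a peak (grey) and of the 9 genes (red), with medians as dashed lines. The open circle shows Erbb3 at 129.8, without the peak at Pa2g4. Then all 9 lie below the median score of 152.6, and 8 of 9 lie to the right of the median width.

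The single peak over the start was compared for the 5 genes that had one. Over 7630 genes with 1 start in the table and a peak over it, the peak reached a median of 449 bp before the start and 1020.5 bp after it. The peaks of Fabp7 (281 and 1767 bp) and Entpd2 (410 and 1424 bp) reached less far before and further after the start than these medians. So did that of Foxd3 (140 and 4863 bp), but there a peak of similar score lay 62 bp further out, and the joined region reached about as far before the start as after it. S100b, with 61 and 850 bp, was short on both sides, and Sox8, with 1131 and 1975 bp, long on both. The Sox8 peak also covers the starts of Cerox1, so its reach is not that of Sox8 alone.

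Counting only peaks more than 1 kb from either gene, the 1055.9 kb from Sox9 to the next protein-coding gene on the lower side held no peak. The 457.1 kb on the upper side held 4, all at least 299.2 kb away and inside or within 1 kb of a long noncoding RNA gene (2610035D17Rik). Foxd3 had 8 peaks in the 359 kb on its lower side, the farthest 282.2 kb away, and 2 of these belong to the joined region. The other 6 were 171 to 447 bp wide with scores from 6.16 to 25.5. A peak of 228 bp, scored 42.4, lay 41.0 kb from the lower end of Fabp7. The gap from there to the next gene, Pkib, is 43.8 kb, so this peak lay much nearer to Pkib. No such peak lay between S100b and Prmt2, Erbb3 and Rps26, or Entpd2 and Sapcd2. On the other sides of these genes the gaps, of 1.7, 1.6 and 1.7 kb, were too short to hold one.

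The 20 other genes of enteric glia and Schwann cells looked much like the 9. All 20 had a peak, with a median joined width of 3812 bp and a median highest score of 98.9. A joined region at or above the median of all genes was found at 15, and a highest score at or above it at 4. Sox2, a factor of glial progenitors, had 8624 bp, the sodium channel gene Scn7a 5134 bp and Dhh, a Schwann cell ligand, 4787 bp. Gfap, the glial filament, stood low, with 1399 bp and a score of 27.3. Col28a1 had 850 bp at a score of 14.2, with no peak within 1 kb of the start.

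The other regulators of the neural crest were mixed. Of 18, 15 had a peak. Their joined regions had a median of 2924 bp, and their highest scores one of 58.6. Zeb2 (15755 bp), a factor of crest migration, Tfap2a (6019 bp) and Ets1 (5981 bp) were the widest. Tfap2b, Tfap2c and Pax7 had no peak, and Pax3, a factor of the crest at the neural tube, had 1 of 245 bp, scored 5.36.

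Markers of other cells that a gut sort can hold were marked unevenly. Neuron markers had a median joined width of 2089 bp, among them Ret (3439 bp) and Elavl4 (2845 bp). Of the 10, 6 had a peak in the higher-scored 50% of the list, close to the 57.8% of all protein-coding genes. In the same 50%, peaks were held by 15 of the 20 further glial genes, 1 of 8 smooth muscle genes, 2 of 7 interstitial and fibroblast genes, 0 of 8 epithelial genes, 1 of 7 endothelial genes and 1 of 8 leukocyte genes. The leukocyte gene was Cd68, whose peak also holds an end of Mpdu1.

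In the full list, 67.0% of all protein-coding genes had a peak, and the median highest score of those genes was 152.6. Peaks were held by all 8 smooth muscle genes, with a median score of 19.0 and joined widths led by Smtn (8899 bp), Actg2 (4054 bp) and Mylk (3827 bp). All 7 interstitial and fibroblast genes had one, with a median score of 28.2, led by Col3a1 (4832 bp), Pdgfra (4246 bp) and Kit (3627 bp). Of epithelial genes 6 of 8 had one (median score 20.0), with Krt19 (1941 bp), Lgr5 (1579 bp) and Krt8 (1407 bp) in front and Vil1 and Cdx2 at none. Of endothelial genes 5 of 7 had one (median score 14.2), with Kdr (2191 bp), Flt1 (1363 bp) and Cldn5 (694 bp) in front and Cdh5 and Tek at none. Of leukocyte genes 3 of 8 had one (median score 9.32), namely Csf1r (2133 bp), Cd68 (1737 bp) and Ptprc (333 bp), while Cd3e and Itgam were among the 5 without. The part of glial cells, or of any other cells in the sort, in the marks at the 9 genes was not tested.

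**Figure D4:**
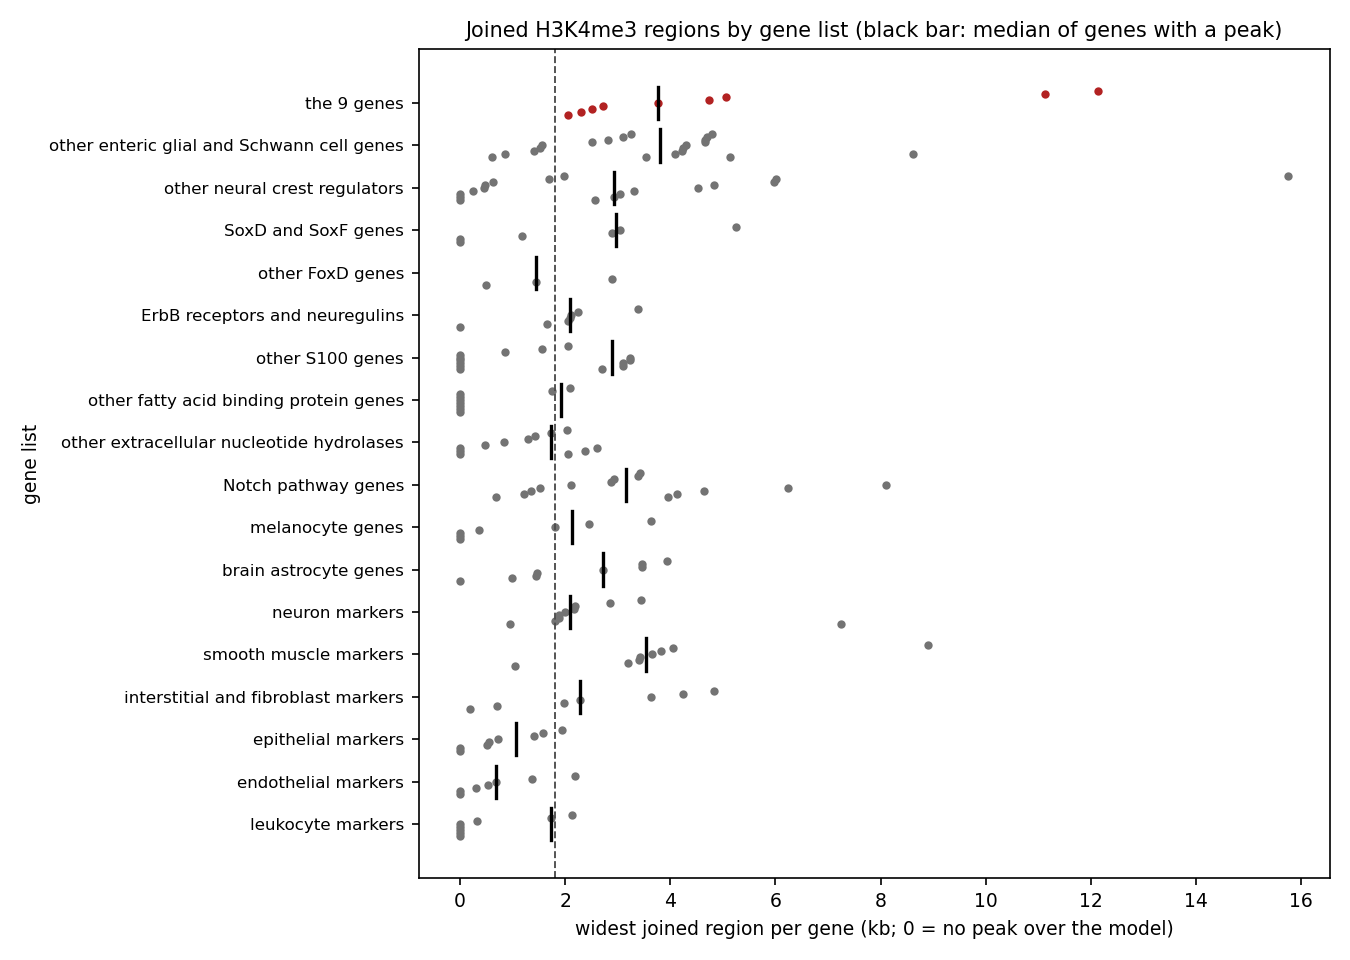
Widest region joined within 1 kb per gene (kb, horizontal) for the 9 genes (red) and 17 other lists (grey), with 0 for genes without a peak, the median of genes with a peak as a black bar, and the median of all genes with a peak (1816 bp) as a dashed line. The 9 genes and the 20 further glial genes have medians of 3775 and 3812 bp, and smooth muscle genes, at low scores, 3538 bp.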

How the data were processed

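The authors' deposited peak list gives each peak a position and a score, and was used as deposited. BWA, Picard and MACS2 and the build mm10 are named in the submitters' processing notes, without versions, roles or order, and the file header names MACS2 and a paired-end library. Depth, the threshold, duplicate handling and the scale on which peaks were scored are stated in no source used here. The input library entered only through the authors' own peak calls, if at all. Weak domains are split or lost first at low depth, so presence, width and joining of peaks depend on an unknown depth.

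Gene models and promoter sequences came from RefSeq tables on GRCm38.p6. All 9 symbols matched a model, and 6 matched a promoter entry. With Python 3.11.15, peaks were assigned to models with 1 kb to each side by an overlap of at least 1 bp and joined at gaps under 1 kb. Ranks are among genes with a peak. The code was tested on simulated data. The 9 genes and the 17 other lists were chosen with earlier results of these data known. Named from each list were the 3 widest joined regions and the genes without a peak, all if 5 or fewer and otherwise the first 3. A few genes that this rule takes are counted but not reported here by name. Other genes of the lists were named after their values were seen. In the promoter background, a gene can have several starts. Alternatives were other score limits, windows, overlaps, widths and joining distances.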

Additional observations from a re-analysis of the deposited data

How the results depend on the processing

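With 1 library there is no replicate check, and a value was taken as unmoved when it stayed within 1.5 times. The counts of members with a peak, and the medians of their widths and scores, stayed so with windows of 500 or 2500 bp, with the middle of the peak in the window, with peaks of at least 300 bp, with the higher-scored 50% of the list, without peaks that hold an end of another protein-coding gene (an alternative added after seeing the data) and, for joined regions, with joining distances of 500 or 2000 bp. They moved only in the best-scored 25% of the list, from 140.8 up, except that the median single width moved nowhere. There 1 of 9 members had a peak over the model and 1 at a start or model end, with a joined width of 1847 bp and a score of 194.74, and this was Erbb3 through the peak at Pa2g4. In that 25%, 37.3% of all protein-coding genes had a peak. The count at a start or model end was 7 of 9 with the middle of the peak in the window, against 60.8% of all genes. Foxd3 and Gpr37l1 then had none there.

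Of 180 values of single members under these alternatives, 7 moved, 1 up and 6 down. Of 265 values of the other lists, 36 moved, 3 up and 33 down. Both tallies leave out widths and scores where no peak was left to measure. Every member but Erbb3 lost all its peaks in the best-scored part of the list, and S100b also in the higher-scored part. The tally of single members therefore understates how far they moved with the score limit. The highest score of Entpd2 was 107.2 with windows of 2500 bp. Such a window reaches into the neighbouring gene Npdc1, 1.7 kb beyond the upper end, so this score is not attributed to Entpd2. With joining distances of 500 bp the median region of the smooth muscle genes was 2076.5 bp in place of 3538 bp. In the last 100 bases before the start, the CpG ratio was 0.35 in Fabp7 and 0 in S100b.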

Other observations

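Genes of the Notch pathway, which favours glial over neuronal fate in crest progenitors, all had a peak, 14 of 14, with a median joined width of 3159.5 bp and a median highest score of 108.8, or 67.6 without peaks that hold an end of another protein-coding gene. The effector genes Hes1 (8109 bp), Hey2 (6230 bp) and Hey1 (4637 bp) had the widest regions of that list. The widest peak of Hey1 also holds an end of another protein-coding gene. Of 7 genes of melanocytes, another crest derivative that uses SOX10, 4 had a peak, among them Kit (3627 bp), Mitf (2448 bp) and Pmel (1804 bp, with a widest peak that also holds an end of Rab5b), and the pigment enzyme genes Tyr, Tyrp1 and Dct had none. Of 8 genes of brain astrocytes 7 had a peak, among them Gja1 (3938 bp) and Kcnj10 (3467 bp), and Aqp4 had none. These genes were set beside the 9 for comparison, and the differences between lists were not tested.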
